A study of Danio rerio with 10 samples.

Results

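The actin monomer cycle was followed in zebrafish (Danio rerio) embryos from the dome stage to 50% epiboly through 7 of the 20920 genes in the deposited tables, each found by its exact gene name. They are the β-actin genes actb1 (ENSDARG00000037746) and actb2 (ENSDARG00000037870), the profilin genes pfn1 (ENSDARG00000088091) and pfn2 (ENSDARG00000003952, named pfn2b in the reference table), the thymosin genes tmsb1 (ENSDARG00000104181) and tmsb4x (ENSDARG00000077777), and the cofilin gene cfl1 (ENSDARG00000021124). All 7 were found, with between 1194 UMIs (tmsb1) and 55531 UMIs (actb2) over all cells, a UMI being a tag that counts 1 captured RNA molecule.

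Wild-type AB/TL embryos received 20 mM 4sUTP at the 1-cell stage, a nucleotide that enters RNA made after the injection, together with mRNAs of fluorescent proteins, and their cells were profiled by Drop-seq after iodoacetamide (IAA) had converted the incorporated 4sU. RNA that carries the label was made by the embryo (zygotic), and RNA without it was supplied by the mother or escaped detection. The 5 IAA libraries used here comprise 1 of dome (replicate B) and a replicate A and a replicate B of both epiboly stages, 30% and 50%. The 5 libraries left unconverted (NT) were not analysed here. All groups received the same injection, and each library pools the cells of many embryos. Dome has a single library and so no spread of its own. Its label gives the letter B and its cell names the letter A. The study's methods place it in the first replicate but describe its deyolking, by shaking, as that of the second epiboly replicate, whereas the first epiboly replicate was deyolked by hand.

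Actin is present in cells as monomers and as filaments that push, contract and stiffen the cell cortex. Profilins bind monomers and feed them to growing filament ends, β-thymosins hold monomers in reserve, and cofilin severs ageing filaments and returns their subunits to the pool. During epiboly the embryo spreads over the yolk. Its outermost sheet, the enveloping layer (EVL), is an epithelium that becomes specialised early, and actomyosin structures at its margin take part in the spreading. The egg is loaded with maternal transcripts of many such housekeeping proteins, which the zygotic genome adds to or replaces once it is switched on.

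The libraries held 251 to 3068 cells and 557065 to 8780804 UMIs of genes, with a median of 2066 to 4087 UMIs per cell. 50% epiboly replicate B is the thinnest by far. The authors named 15 cell types, and EVL made up 1.20% to 5.91% of a library's cells. A total level below is given as CPM, a gene's UMIs out of every 1000000 UMIs of the summed cells, and in such sums fewer cells of a type and less RNA per cell cannot be told apart. The labelled fraction is the share of a gene's UMIs that was labelled, taken over gene and cell pairs with 3 or more UMIs. It is multiplied with CPM to give labelled and unlabelled CPM. Over all genes it was 13.6% at dome, 38.2% and 32.1% at 30% epiboly (replicates A and B), and 51.2% and 34.9% at 50% epiboly. The injected mRNAs, nearly all of whose UMIs came from GFP and mCherry made without label, read as 0.570% to 0.922% labelled, which is the background for these RNAs. The study gives a higher upper bound for known maternal genes than for its injected controls. It also reports that labelled fractions of zygotic genes were often underestimated in single cells. Low fractions below are therefore not shown to exceed background.

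The 7 genes ranged from almost wholly labelled to mostly unlabelled. tmsb1 stood at one end, with 99.3% of its UMIs labelled at dome (95% Wilson interval 90.4% to 99.96%), 91.3% and 99.5% at 30% epiboly, and 98.5% and 100% at 50% epiboly. These fractions rest on 17 to 522 UMIs, the 17 (50% epiboly replicate B) all from 1 EVL cell. The intervals throughout cover counting error only. The other thymosin gene, tmsb4x, was 54.6% labelled at dome, 85.1% and 77.8% at 30% epiboly, and 87.2% and 73.3% at 50% epiboly. By this measure all 5 libraries had more labelled than unlabelled tmsb4x. Counted over all cells with a UMI, however, tmsb4x was 45.1% labelled at dome.

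The β-actin genes, which encode near-identical proteins, differed in this respect. actb1 was 60.2% labelled at dome, 76.7% and 78.4% at 30% epiboly, and 82.7% and 69.1% at 50% epiboly. For actb2 the fractions were 17.8%, 41.1%, 31.7%, 58.0% and 21.1% in the same order. The labelled fraction of actb1 was above that of actb2 in 5 of 5 libraries, by 24.7 to 48.0 percentage points. Counted over all cells with a UMI, actb1 was 48.6% labelled at dome and actb2 17.6%. Reads shared by the 2 genes could blur such a difference, and the sources used here do not say how the authors counted them.

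pfn2 and cfl1 were mostly unlabelled in every library. pfn2, a profilin best known from neurons in mammals, was 4.46% labelled at dome, 16.7% and 16.6% at 30% epiboly, and 24.9% and 21.0% at 50% epiboly. cfl1 was 8.0%, 16.3%, 20.2%, 26.2% and 20.4% labelled. Both thus lay below the fraction over all genes, which pools UMIs, in each of the 5 libraries. The median gene was less labelled, at 5.00% at dome, 25.3% and 19.5% at 30% epiboly, and 45.1% and 24.2% at 50% epiboly. Against it, cfl1 was higher at dome and in 30% epiboly replicate B and lower in the other libraries. pfn2 was lower than the median gene in every library, though only narrowly at dome (percentile 47.6). pfn1, another profilin gene, ran from 7.03% at dome to 60.9% and 25.5% at 30% epiboly and to 75.2% and 28.3% at 50% epiboly. Its value in a whole library leans on the few EVL cells that hold many pfn1 UMIs, because cells with 1 or 2 pfn1 UMIs do not enter it. Counted over all cells with a UMI, its mean fraction was 31.6% ± 16.0 (SD, n = 2) at 30% epiboly and 32.3% ± 29.4 (SD, n = 2) at 50% epiboly, against 43.2% ± 25.0 and 51.8% ± 33.2 with the minimum of 3.

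**Figure D1:**
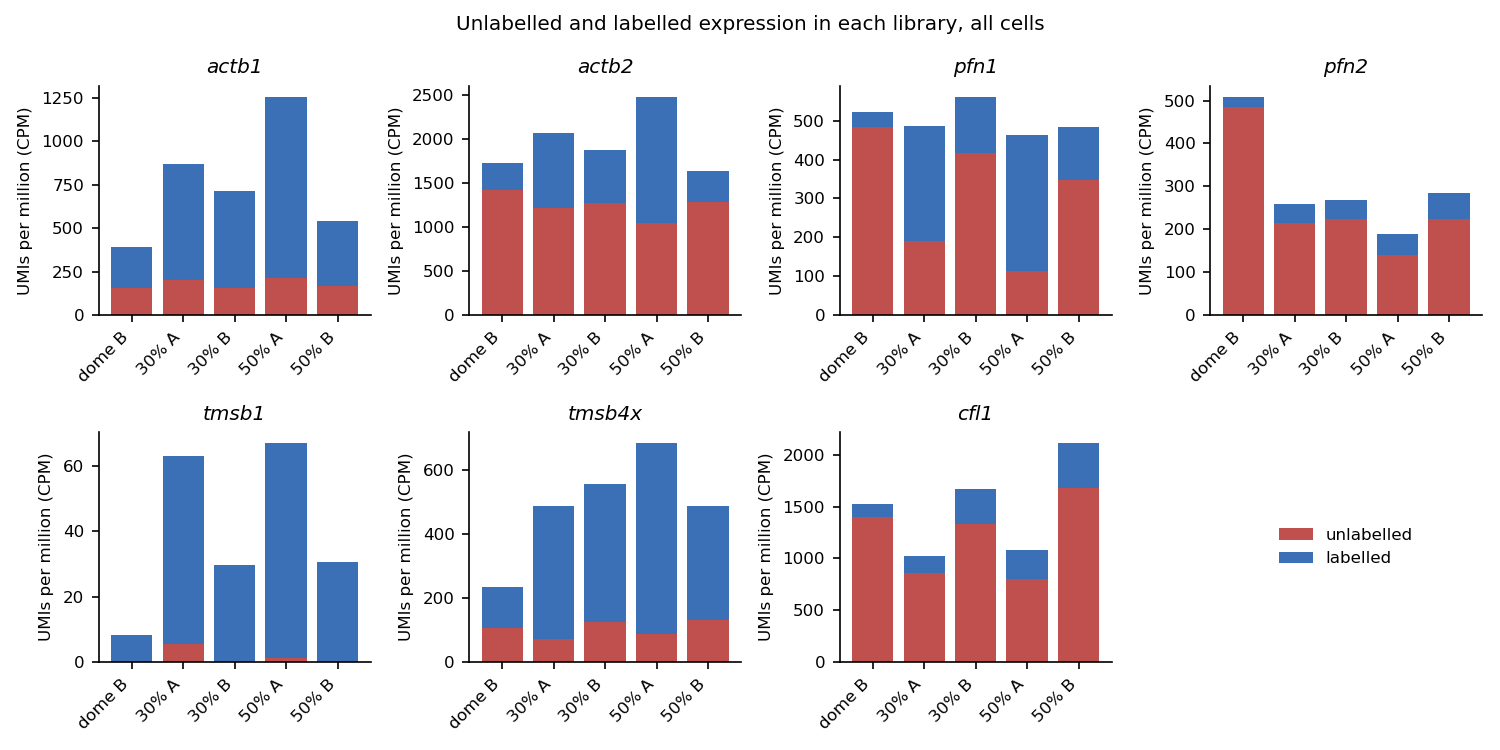
Unlabelled (red) and labelled (blue) expression of the 7 genes, stacked to the total in CPM, with 1 bar for each of the 5 libraries. Bars of tmsb1 are almost wholly labelled and those of pfn2 and cfl1 mostly unlabelled, while the labelled part of actb2 ranges from 307 CPM at dome to 1439 CPM in 50% epiboly replicate A.

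The labelled fractions of 30% and 50% epiboly could not be told apart by a test. With 2 libraries against 2, an exact permutation p (two-sided) cannot go below 0.333. pfn2 and cfl1 had that p, with mean differences of 6.36 points (16.6% ± 0.0863 to 23.0% ± 2.76, SD, n = 2) and 5.06 points (18.2% ± 2.75 to 23.3% ± 4.09, SD, n = 2). Within replicate letters, pfn2 differed by 8.25 points in A and 4.47 in B, and cfl1 by 9.90 in A and 0.228 in B. actb2 was 16.9 points higher at 50% epiboly within A and 10.7 points lower within B, so the letters disagreed in direction, as they did for actb1 (6.06 and -9.25 points) and tmsb4x (2.07 and -4.42 points).

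Against dome, total tmsb1, tmsb4x and actb1 rose at 50% epiboly. In edgeR's quasi-likelihood test over 12150 genes, with Benjamini-Hochberg adjustment and a 5% false discovery rate as the threshold, 7.95% of genes were called (5.69% higher, 2.26% lower), and 3 of the 7 members were, all higher. Without TMM scaling of the libraries, which shifts the median gene by -0.463 on the log2 scale, 2136 genes were called (605 higher, 1531 lower) in place of 966 (691 higher, 275 lower). The 7 members had a median log2 change of 0.71, against -0.09 for all genes.

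tmsb4x stood at 234.7 CPM at dome, 486.9 and 555.8 at 30% epiboly, and 683.8 and 488.3 at 50% epiboly. Every epiboly library lay above dome, and the 2 epiboly stages overlapped. Its log2 change from dome to 50% epiboly was 1.78 (SE 0.43, edgeR adjusted p = 0.0216). The labelled part rose with it, from 128.2 CPM at dome to 596.1 and 358.1 at 50% epiboly (log2 1.84, SE 0.51, limma adjusted p = 0.0312). The median change in labelled expression over 791 genes was 1.63, and 46% of them were called. The rise of labelled tmsb4x was thus near that of the typical gene. The unlabelled part was 106.6 at dome and 87.7 and 130.2 at 50% epiboly. The call on labelled tmsb4x was lost when 30% epiboly replicate A or B or 50% epiboly replicate B was left out. These fits leave an epiboly stage with a single library. Calls over all genes were lost in them too, so the loss is not particular to tmsb4x.

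actb1 stood at 393.1 CPM at dome, 870.6 and 716.6 at 30% epiboly, and 1255.9 and 540.3 at 50% epiboly. Again dome was the lowest library, but the 2 libraries of 50% epiboly lay on either side of those of 30% epiboly. Its log2 change of 1.67 (SE 0.50, edgeR adjusted p = 0.0476) was close to the threshold. It was lost without 50% epiboly replicate A (log2 0.92, adjusted p = 0.0912), without TMM (1.20, adjusted p = 0.0693) and with a replicate block (1.14, adjusted p = 0.124). Unlabelled actb1 differed little between libraries, at 155 to 217 CPM, and labelled actb1 ranged from 236.8 CPM at dome to 1039 in 50% epiboly replicate A.

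tmsb1 stood at 8.34 CPM at dome, 63.0 and 29.8 at 30% epiboly, and 67.0 and 30.5 at 50% epiboly. In 50% epiboly replicate B all 17 of its UMIs came from 1 EVL cell. The change at 50% epiboly was 3.10 on the log2 scale (SE 0.66, edgeR adjusted p = 0.0124). At both epiboly stages replicate A was above replicate B.

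For the other 4 genes no change from dome to 50% epiboly passed the test. actb2 stood at 1730.5 CPM at dome, 2076.5 and 1872.9 at 30% epiboly, and 2482.2 and 1637.2 at 50% epiboly (log2 0.71, SE 0.39, edgeR adjusted p = 0.256). Without 50% epiboly replicate B the change was 1.06 and was called (adjusted p = 0.00752). pfn2 was lower in every epiboly library, at 508.5 CPM at dome, 257.9 and 269.0 at 30% epiboly, and 188.3 and 283.6 at 50% epiboly. Its estimate was -0.70 (SE 0.38, edgeR adjusted p = 0.252), and its unlabelled part, 485.8 CPM at dome and 141 to 224 in the epiboly libraries, gave -1.44 (SE 0.49, limma adjusted p = 0.172). A profilin gene named pfn2l, not among the 7, stood at 623.5 CPM at dome, 597.2 and 634.1 at 30% epiboly, and 543.5 and 764.7 at 50% epiboly.

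cfl1 divided the libraries by replicate more than by stage. It stood at 1525.2 CPM at dome, 1670.4 and 2114.7 in the B libraries of 30% and 50% epiboly, and 1025.3 and 1081.8 in the A libraries. The A libraries did not overlap with the other 3, in the unlabelled part (799 and 858 CPM in A, 1333 to 1684 in the others) as in the total. The epiboly replicates differed in deyolking, and its part in the difference was not tested. The log2 change of cfl1 at 50% epiboly was 0.48 (SE 0.43, edgeR adjusted p = 0.487).

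pfn1 stood at 464 to 561 CPM in all 5 libraries (log2 0.30 at 50% epiboly, SE 0.38, edgeR adjusted p = 0.633, and -0.14 without TMM), so its total hardly varied. Its labelled part nevertheless went from 36.6 CPM at dome to 349.2 and 136.6 at 50% epiboly (log2 2.54, SE 0.72, limma adjusted p = 0.0325), and this call rested on EVL cells. In all other cells it was 0.99 (SE 0.96, adjusted p = 0.398). The call was also lost without each epiboly library in turn, in fits where calls over all genes fell as well. In 30% epiboly replicate A, EVL cells gave 1448 of the 2261 pfn1 UMIs behind the fraction, but 1492 of all 3401. Labelled pfn1 of a whole library can therefore come out too high, and unlabelled pfn1 too low. The unlabelled value of that library, 190.5 CPM, lay below those of its EVL cells (313) and its other cells (270). In 50% epiboly replicate B, EVL cells gave 22 of the 82 pfn1 UMIs behind the fraction, but 22 of all 269. Labelled pfn1 was 8.95 CPM in its other cells, so the 136.6 CPM of the whole library comes out too high. The limma call on labelled pfn1 uses such values. pfn1 and tmsb4x were the 2 members called of 6 tested for labelled expression, where 46% of 791 genes were called. For unlabelled expression 0 of 6 were called by limma (0.632% of genes, and 1 member, pfn2, with an unadjusted p under 0.05, at 0.00914).

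From dome to 30% epiboly 0 of 7 members were called by edgeR for total expression, against 0.321% of genes. tmsb1 (log2 2.71, adjusted p = 0.0806), tmsb4x (1.38, 0.144) and actb1 (1.24, 0.272) had unadjusted p under 0.05, at 0.00058, 0.0042 and 0.020. DESeq2 called 1, tmsb1 (adjusted p = 0.00538). From 30% to 50% epiboly 0 of 7 were called by edgeR or DESeq2, with 0% of genes called by edgeR and no member at an unadjusted p under 0.05. Among cells other than EVL, where 8.94% of genes were called from dome to 50% epiboly, actb1 (log2 1.69, adjusted p = 0.0304) and tmsb4x (1.80, adjusted p = 0.0141) rose as well, with 6.15% of genes called higher. In the same cells 43.6% of genes were called for labelled expression, all higher, with tmsb4x (1.86, limma adjusted p = 0.0331) the 1 member among them, and 1.53% for unlabelled expression, all lower, with no member. tmsb1 had only 2 UMIs in these cells at dome and 32 and 0 at 50% epiboly. These sets of cells were added after the data had been seen.

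EVL cells were compared with all other cells of the same library. There were 92, 143, 23 and 114 EVL cells at dome, in 30% epiboly replicates A and B and in 50% epiboly replicate A. The 3 EVL cells of 50% epiboly replicate B were left out, so that these tests rest on 4 libraries. Total pfn1, actb1, tmsb4x and actb2 were higher in EVL, and pfn2 and cfl1 were not called. That makes 4 of 6 members called by edgeR, where 10.6% of 7265 genes were (7.32% higher). tmsb1 is described by its counts alone, since it passed the filter on low counts only through the EVL cells in which it is high. The library was a term in the model, and without it pfn1 alone of these 6 was called (adjusted p = 0.00215, and 0.0766 for actb1). The cell types are the authors' clusters of total expression, in which these genes may have taken part, so that total levels by type are not independent of the naming. The labelled fraction was not used there.

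The EVL label was set beside 7 EVL markers (krt4, krt5, krt8, krt92, cyt1, cldne and spaca4l). Their summed level was 4456 CPM in EVL cells at dome and 29254 to 41547 in the other 3 libraries, against 41.7 to 172.8 CPM in other cells. Each of the other 6 was highest in EVL among all types, and cyt1 was at or near 0 (at most 5.65 CPM). EVL cells were about as deep as the others, with a median of 3321 against 3523 UMIs at dome and 2396 against 2415 in 50% epiboly replicate A.

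tmsb1 was found almost solely in the EVL. It stood at 170.3 CPM in EVL cells at dome, 957.4 and 724.0 at 30% epiboly and 1571 in 50% epiboly replicate A. In all other cells it stood at 0.283, 3.36, 1.07 and 3.80 CPM. Of its 1194 UMIs, 1135 came from EVL cells and 59 from the rest. The ratio was 603-fold at dome (95% interval of the counts 160 to 5091), 285-fold (186 to 459) and 677-fold (224 to 3350) at 30% epiboly, and 414-fold (290 to 611) in 50% epiboly replicate A.

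Within the EVL, tmsb1 was not in every cell. At least 1 UMI was found in 18 of 92 EVL cells at dome, 50 of 143 and 10 of 23 at 30% epiboly, and 64 of 114 in 50% epiboly replicate A, or 19.6%, 35.0%, 43.5% and 56.1%. Other cells had 0.113% to 1.05%. With each cell thinned to 1500 UMIs and shallower cells left out (2 to 42 EVL and 78 to 716 other cells per library), the shares were 13.6%, 29.7%, 28.6% and 51.2% in EVL against 0% to 0.637%. Of the 45 sums of a non-EVL type in a library, 26 held no tmsb1 UMI. The largest of those 26 sums would allow up to 2.80 CPM at 0 counts (3 counts of its total). The highest of the 45 was 9.82 CPM, from 1 UMI in YSLContam, a type that the authors trace to the yolk syncytial layer. No cell outside the EVL had the 3 UMIs needed for a labelled fraction.

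pfn1 stood at 965.1 CPM in EVL cells at dome, 3417 and 2767 at 30% epiboly and 5531 in 50% epiboly replicate A. Other cells had 499.2, 291.8, 469.7 and 251.3 CPM. EVL cells were higher in 4 of 4 libraries, by 1.93-fold at dome and 5.89-fold to 22.0-fold later, and the log2 difference was 3.14 (SE 0.42, edgeR adjusted p = 0.000104). In 50% epiboly replicate A, EVL cells were 3.72% of the cells and held 48.0% of all pfn1 UMIs.

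Labelled and unlabelled pfn1 were divided by cell type. In EVL cells 49.4% of pfn1 was labelled at dome, 90.8% and 93.0% at 30% epiboly and 98.2% in 50% epiboly replicate A. In other cells it was 1.72%, 7.59%, 2.70% and 14.1%. The mean difference was 76.4 points ± 19.4 (SD, n = 4), higher in 4 of 4 libraries, with an exact sign-flip p of 0.125 (two-sided), the smallest that 4 libraries allow. Among pairs with exactly 3 UMIs in both groups, the difference was 33.3 points ± 14.5 (SD, n = 4, 12.0 to 43.1). It was again higher in 4 of 4 libraries. The part of UMI number per cell in the larger difference was not tested. Labelled pfn1 was 477 CPM in EVL cells at dome, 3104 and 2574 at 30% epiboly and 5434 in 50% epiboly replicate A, against 8.59, 22.1, 12.7 and 35.4 in other cells (log2 6.87, SE 0.30, limma adjusted p = 2.98e-06).

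Unlabelled pfn1, by contrast, was 488, 313, 193 and 97.3 CPM in EVL cells and 491, 270, 457 and 216 in other cells, which did not pass the test (log2 -0.54, SE 0.23, limma adjusted p = 0.124). The EVL value was under that of other cells in 3 of 4 libraries, and a p that misses the threshold does not show that the groups are alike. Among cells with 3 or more pfn1 UMIs, the labelled fraction was listed at 0 in 78.2% to 95.5% of the other cells of the 4 libraries, and in 44.7% of EVL cells at dome and 4.05% to 11.1% later.

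RNA freed from broken EVL cells can enter droplets of other cells, and its part in the low values outside the EVL was not tested. The summed EVL markers in other cells were 0.280% to 0.935% of their level in EVL cells. The same ratio was 0.148% to 0.351% for tmsb1 and 0.492% to 1.80% for labelled pfn1. For labelled actb1 it was 19.9% to 28.7%.

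actb1 stood at 896.9 CPM in EVL cells at dome, 2888 and 2276 at 30% epiboly and 3705 in 50% epiboly replicate A, and at 368.0, 736.0, 652.2 and 1153 in other cells. The EVL value was the highest of all types in each of these 4 libraries (log2 1.89, SE 0.11, edgeR adjusted p = 1.1e-08). The labelled part differed (log2 2.05, SE 0.13, limma adjusted p = 1.83e-05) and the unlabelled part did not pass the test (-0.26, SE 0.21, adjusted p = 0.450). Its labelled fraction was 80.9%, 91.5%, 96.5% and 95.4% in EVL cells and 56.5%, 71.5%, 75.3% and 80.7% in others, a difference of 20.0 points ± 4.04 (SD, n = 4, exact sign-flip p = 0.125).

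actb2 showed the same order with a smaller step. It stood at 2146, 2753, 2026 and 3293 CPM in EVL cells and at 1710, 2031, 1867 and 2448 in others, higher in 4 of 4 libraries (log2 0.53, SE 0.076, edgeR adjusted p = 0.000217). Labelled actb2 was higher in EVL (log2 0.86, SE 0.11, limma adjusted p = 0.00158), unlabelled actb2 gave -0.07 (SE 0.075, adjusted p = 0.543), and the labelled fraction was 14.5 points ± 3.80 higher (SD, n = 4, 4 of 4 libraries, exact p = 0.125). With exactly 3 UMIs per pair that difference was 7.44 points ± 22.9 (SD, n = 3), higher in 2 of 3 libraries. Of all β-actin UMIs, actb1 supplied 29.5% to 52.9% in EVL cells and 17.7% to 32.0% in other cells of the same 4 libraries.

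tmsb4x stood at 300.9, 607.0, 922.3 and 864.8 CPM in EVL cells and at 231.4, 478.9, 540.6 and 676.2 in others (log2 0.65, SE 0.098, edgeR adjusted p = 0.000333). The labelled part was also called (0.58, SE 0.14, limma adjusted p = 0.0306), though not without 30% epiboly replicate A (adjusted p = 0.0708), 30% epiboly replicate B (0.106) or 50% epiboly replicate A (0.108). Its labelled fraction was higher in EVL in 2 of 4 libraries (5.51 points ± 9.85, SD, n = 4, exact p = 0.5).

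pfn2 stood at 474.0, 206.1, 206.9 and 144.1 CPM in EVL cells and at 510.2, 261.4, 271.6 and 190.1 in others (log2 -0.10, SE 0.11, edgeR adjusted p = 0.662). cfl1 stood at 1473, 815, 1276 and 808 in EVL cells and at 1528, 1039, 1687 and 1093 in others. EVL was the lower group in 4 of 4 libraries for both genes, and neither passed the test (cfl1 -0.11, SE 0.076, adjusted p = 0.429). Without TMM, which shifts the median gene by -0.190 here and gives 1077 calls (427 higher, 650 lower) in place of 773 (532 higher, 241 lower), cfl1 was called at -0.31 (adjusted p = 0.0364). Its labelled part gave -0.83 (limma adjusted p = 0.233), and -1.32 with a call (0.0174) when dome was left out. For labelled expression 4 of 5 members tested were called, where 10% of 789 genes were. For unlabelled expression 0 of 5 were called by limma (12.8% of genes). There, pfn1 and cfl1 had unadjusted p of 0.0337 and 0.00728, and cfl1 was called without dome (-0.25, adjusted p = 0.0294).

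**Figure D2:**
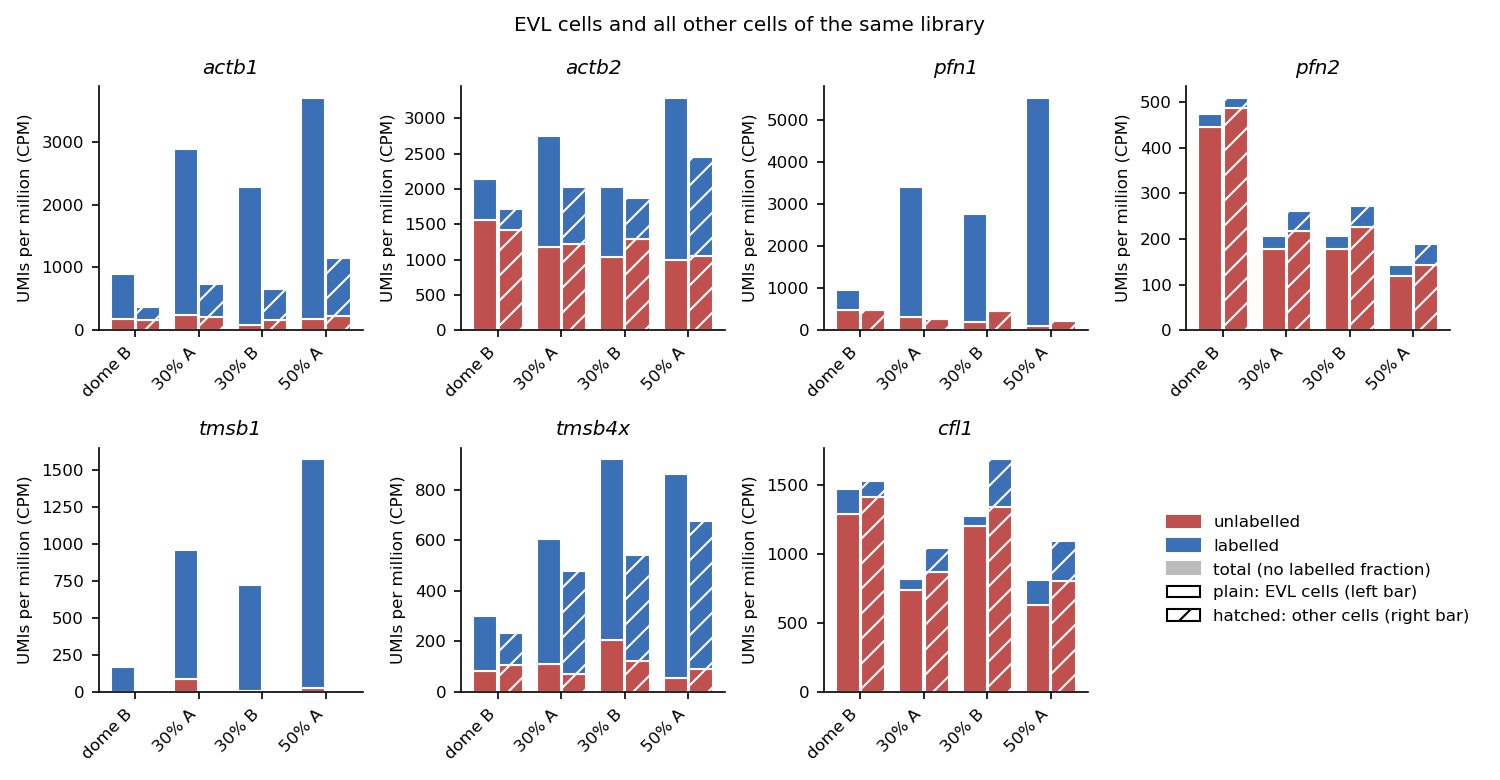
Unlabelled (red) and labelled (blue) CPM in EVL cells (plain, left bar) and in all other cells (hatched, right bar) of the 4 libraries with 20 or more EVL cells. The blue part of pfn1 reaches 5434 CPM in EVL cells of 50% epiboly replicate A against 35.4 CPM in other cells, while pfn2 and cfl1 bars of EVL cells are the lower of each pair. Where no labelled fraction could be had (tmsb1 in other cells) the bar shows the total in grey and is too low to be seen.

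EVL cells were unequal in EVL markers, so they were grouped by the summed CPM of the 7 markers, with limits of 1000 and 10000 chosen after the data had been seen. Such classes are ranges of a score and not cell types, and 53 of the 375 EVL cells lay between 5000 and 20000. Cells with 10000 or more made up 15.2% of EVL cells at dome (14 cells), 51.0% and 60.9% at 30% epiboly and 62.3% in 50% epiboly replicate A. Only 1 other cell reached that level. These cells held 83.3% of the EVL's tmsb1 UMIs at dome and 99.5% to 100% in the other 3 libraries. For pfn1 the shares were 32.9% at dome and 93.8% to 96.6% later.

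In EVL cells with 10000 or more, pfn1 stood at 2467 CPM at dome, 5735 and 3642 at 30% epiboly and 7847 in 50% epiboly replicate A. In EVL cells below 1000 it stood at 635.9, 265.9, 353.6 and 235.4, from 112, 25, 7 and 6 UMIs. The labelled part in this class was 118.6 CPM at dome and 96.8 in 30% epiboly replicate A, above the 8.59 and 22.1 of other cells, and rested on 87 and 20 UMIs. actb1 went from 590.5, 829.5, 858.8 and 1255 CPM to 2269, 4451, 2856 and 4883, and tmsb1 from 0 in all 4 libraries to 1101, 1679, 1016 and 2300. All 3 genes were thus several times higher in the marker-rich class than in the marker-poor class of the same library. Marker-rich cells were also later in pseudotime, the authors' score of developmental progress in pseudo-minutes. Their median was 318.91 at dome, 329.89 and 344.95 at 30% epiboly and 342.3 in 50% epiboly replicate A. In the marker-poor class it was 283.99, 310.06, 310.72 and 312.64. Marker level and progress cannot be told apart in this comparison, and the part of progress was not tested.

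Tested against other cells, marker-rich EVL cells gave log2 differences of 3.96 (SE 0.12) for pfn1, 2.61 (SE 0.12) for actb1, 0.96 (SE 0.15) for tmsb4x and 0.78 (SE 0.11) for actb2. These 4 of 6 were called, with 21.3% of genes, and tmsb1 is again left to its counts. The other cells had median pseudotimes of 280.57, 312.98, 316.18 and 329.59 in the same order of libraries. Each lay below that of the marker-rich class, so progress is not separated from marker level in this test either. pfn2 (-0.44, adjusted p = 0.110) and cfl1 (-0.31, adjusted p = 0.0718) were not. In EVL cells below 10000 only pfn1 was called (0.60, SE 0.14, edgeR adjusted p = 0.00139), among 6 members tested, where 1.52% of genes were. actb1 gave 0.33 (adjusted p = 0.363) and actb2 -0.02 there.

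**Figure D3:**
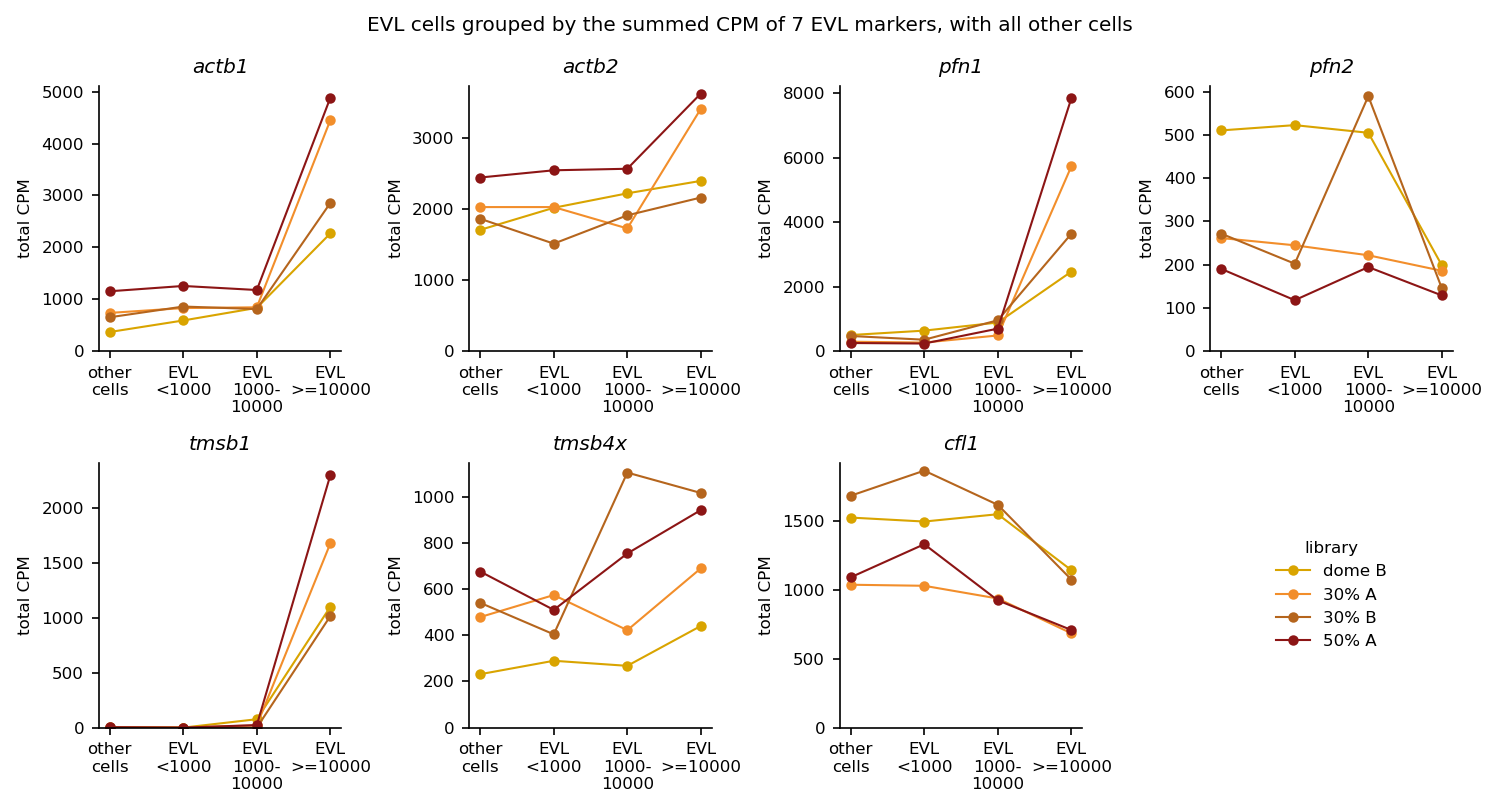
Total CPM of each gene in other cells and in EVL cells with under 1000, 1000 to 10000, and 10000 or more CPM of EVL markers, with 1 line for each of 4 libraries. tmsb1, pfn1 and actb1 are highest in the last class in every library, where pfn1 spans 2467 to 7847 CPM.

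The EVL difference in pfn1 was larger in the 3 epiboly libraries than at dome. In a term added to the fit after this had been seen, so that it describes the difference rather than tests it independently, the ratio of EVL to other cells was 2.79 log2 units higher (SE 0.21) for pfn1 and 0.69 (SE 0.17) for actb1. These were the 2 of 7 members called, with 2.11% of genes. tmsb1 is among the 7 only through its EVL counts. Dome is 1 library, so that stage and library cannot be told apart. Marker levels moved with it, at 4456 CPM summed over the EVL at dome and 29254 or more later. With marker-rich EVL cells alone, the same term was 2.18 (SE 0.27) for pfn1 and 0.02 (SE 0.28, edgeR adjusted p = 0.990) for actb1, so that 1 of 7 members and 0.728% of genes were called. The median over all genes for this term in marker-rich cells was 0.52, so that actb1 lay below the typical gene and pfn1 above it. pfn1 in marker-rich EVL cells was 84.7% labelled at dome and 92.5% to 98.8% later.

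The other 14 cell types were each compared with the remaining cells of the same library. The compared cells were not matched for developmental progress, so type and progress cannot be told apart in these tests. Among cells other than EVL at dome, the least and the most advanced (bins described below) had 190.2 and 481.1 CPM of tmsb4x. For actb1 these levels were 299.5 and 838.1 CPM, and for pfn2 575.7 and 349.2. With EVL among the remaining cells, 25 pairs of a member and a type were called (0.414% to 14.9% of genes by type). Of these, 13 were for pfn1 and tmsb1, all lower, which is the other face of their high level in EVL. The 7 calls of tmsb1 among them rest on the EVL counts that took it past the filter, and are no separate result. With EVL cells taken out, tmsb1 was tested in 1 type and called in 0. With EVL cells taken out, a choice made after seeing the data, 13 of 85 tested pairs were called, and pfn1 and cfl1 were called in 0 of 14 types by edgeR (2 types for pfn1 and 0 for cfl1 at an unadjusted p under 0.05). Outside the EVL, pfn1 lay between 197 and 583 CPM over the types with 20 or more cells, lower in A than in B libraries of the same stage wherever a type had 20 or more cells in both.

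tmsb4x varied most among these types, with 6 calls. In NeuralEcto it stood at 567.5, 661.8, 665.6, 816.4 and 635.8 CPM in the 5 libraries (dome, then A and B of 30% epiboly, then A and B of 50% epiboly), and in the other non-EVL cells at 224.1, 443.1, 524.3, 617.8 and 408.6. NeuralEcto was higher in 5 of 5 libraries (log2 0.71, SE 0.11, edgeR adjusted p = 2.94e-05), where 13.1% of genes were called. Of 3 neural markers sox2 was highest in NeuralEcto, otx2b was near 0 in all types, and sox3 was highest in NonNeuralEcto. tmsb4x was also higher in Notochord (0.25, SE 0.066, adjusted p = 0.0122, and 5.26% of genes called), a call that DESeq2 did not make (adjusted p = 0.251 with EVL included). Of the notochord markers, noto was highest in Notochord, tbxta in MuscleBlood and chrd in PrechordalPlate.

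tmsb4x was lower in 4 types. In Dome, a cluster with 1130 of the 1855 dome-stage cells, it stood at 210.7, 200.4, 274.7, 263.6 and 232.1 CPM against 269.6, 485.2, 560.6, 679.0 and 497.2 (log2 -1.09, SE 0.15, edgeR adjusted p = 3.0e-11, 10.8% of genes called). This cluster kept within 200 to 275 CPM over the 3 stages. YSLContam was lower in 4 of 4 libraries (-0.998, SE 0.15, adjusted p = 1.46e-09, 5.06% of genes), at 129.6 against 236.3 CPM at dome and 311.4 against 680.7 in 50% epiboly replicate A. EndodermB (-1.54, SE 0.33, adjusted p = 0.000264, 2.25% of genes) and CellCycle_Dome (-3.90, SE 0.70, adjusted p = 3.46e-06, 7.61% of genes) rest on 2 libraries each, with as few as 10 and 6 cells. With EVL cells among the rest, DESeq2 did not call EndodermB (adjusted p = 0.0547). Leaving out TMM there shifted the median gene by 0.766 in CellCycle_Dome and gave -3.10 for tmsb4x. sox32 and sox17, the endoderm markers, were highest in EndodermA. Of the yolk syncytial layer markers, mxtx1 was highest in YSLContam and mxtx2 in PGC.

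actb1 was lower in Dome too, at 336.9, 387.0, 361.2, 825.8 and 309.5 CPM against 425.5, 743.8, 674.1, 1155 and 544.0 (log2 -0.87, SE 0.14, edgeR adjusted p = 1.22e-08). It was lower in CellCycle_Dome (-2.69, SE 0.61, adjusted p = 0.000681, and -1.93 without TMM and with EVL cells among the rest). In 4 of 5 libraries it was also lower in Notochord (-0.34, SE 0.061, adjusted p = 8.99e-05). Its higher level in NeuralEcto (0.41, SE 0.10, adjusted p = 0.00800) was not called with EVL cells among the rest (adjusted p = 0.158). In Dome, 3 of 6 members tested were called, the third being actb2 (-0.56, SE 0.12, adjusted p = 0.000109).

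actb2 was higher in MuscleBlood in 5 of 5 libraries, at 3030, 2792, 2336, 2988 and 2065 CPM against 1706, 2002, 1843, 2388 and 1616 (log2 0.41, SE 0.083, edgeR adjusted p = 2.61e-05, 5.3% of genes called). Of 3 markers listed for ventral margin, muscle and blood, tbx16 was highest in that cluster, eve1 in VentralMargin and msgn1 in EndodermA. pfn2 was lower in NeuralEcto, at 217.8, 215.0, 191.9, 165.1 and 206.0 CPM against 516.6, 270.4, 281.9, 200.5 and 322.2 (log2 -0.38, SE 0.099, adjusted p = 0.00956). At dome the highest pfn2 levels were 1277 CPM in CellCycle_Dome and 912.6 CPM in PGC, the primordial germ cells, neither of which passed the test.

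**Figure D4:**
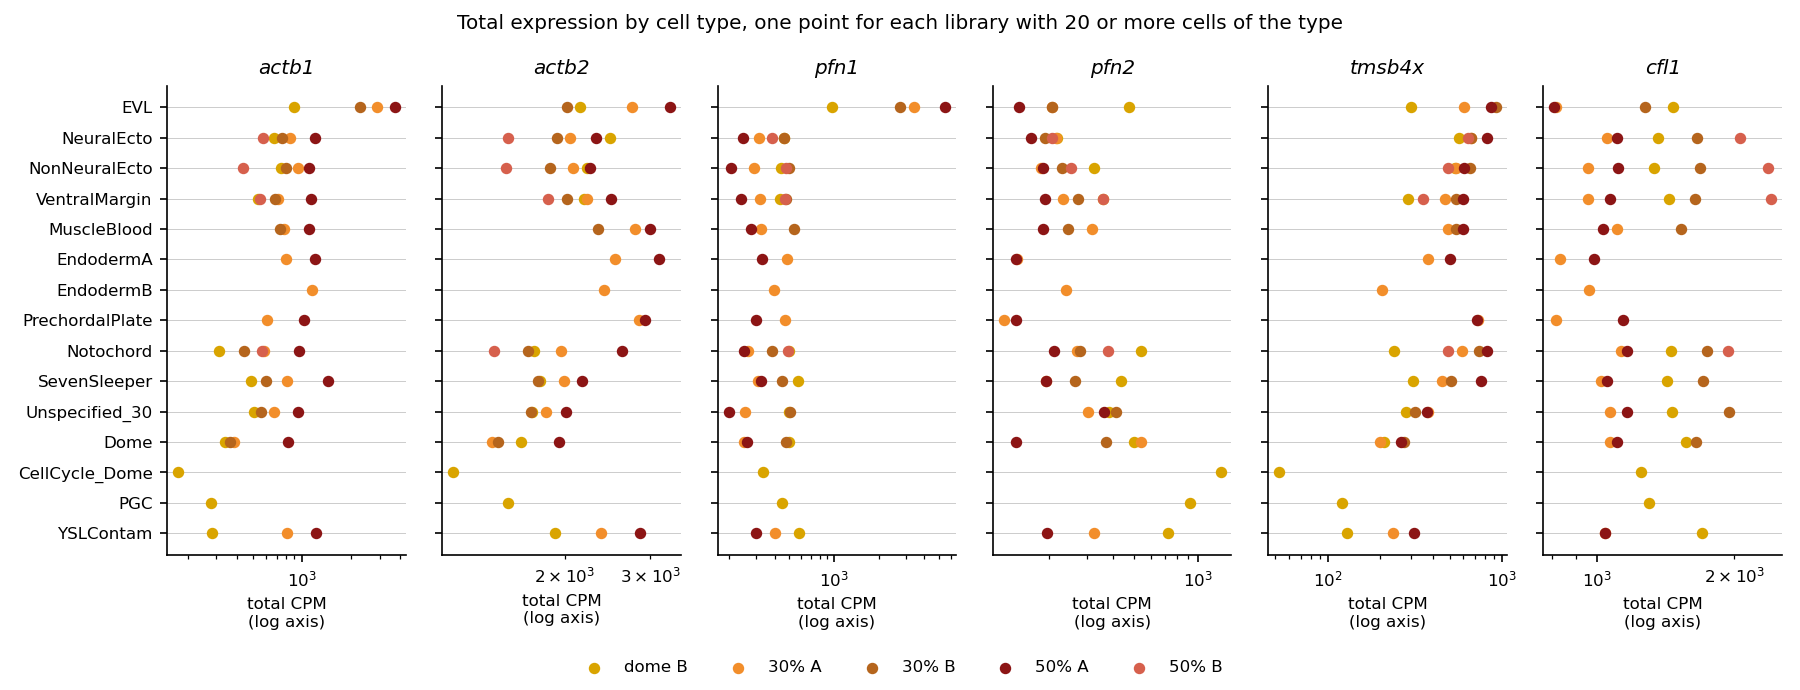
Total CPM (log axis) of 6 members by cell type, with 1 point for each library that has 20 or more cells of the type. EVL points of pfn1 and actb1 lie to the right of all others of their library, and tmsb4x runs from 52.5 CPM in CellCycle_Dome to 922.3 CPM in EVL. tmsb1 is left out because nearly all of its sums outside the EVL are at or near 0.

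Cells of 1 library differ in developmental progress, which the authors expressed as pseudotime, in pseudo-minutes, from total expression of all cells. Non-EVL cells were divided at 280, 300 and 320 pseudo-minutes, and bins with 20 or more cells are described here with no test. These genes may have taken part in pseudotime, and the study reports a higher zygotic fraction in cells later in it. Labelled levels over all genes were not taken by bin. A rise in labelled RNA is therefore not shown to be particular to any gene here. At dome, labelled actb2 was 196, 331, 697 and 1055 CPM from the earliest to the latest bin, while unlabelled actb2 was 1365, 1486, 1488 and 1428. The later bins thus held more labelled actb2 over a nearly even unlabelled level. Labelled actb1 at dome was 161, 219, 412 and 602 CPM and labelled tmsb4x 87.0, 133, 261 and 387. Unlabelled actb1 in these bins was 139, 185, 212 and 236 CPM and unlabelled tmsb4x 103, 123, 121 and 94.3. Unlabelled actb1 was also higher in the last bin than in the first in the A libraries, and lower in the B libraries of epiboly. Labelled copies without a detected conversion count as unlabelled, and their part in these values was not tested.

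The same direction held for total actb1, actb2 and tmsb4x between the first and last bin of 5 of 5 libraries, although the last over the first was only 1.02 for actb2 in both libraries of 50% epiboly. pfn2 went the other way. Its unlabelled level was 559, 421, 273 and 157 CPM at dome, 384, 296, 196 and 154 in 30% epiboly replicate A, and 349, 369, 218 and 131 in 30% epiboly replicate B. The total of pfn2 in the last bin was 0.463 to 0.607 of the first in 5 of 5 libraries. Labelled pfn2 in the last bin at dome was 192 CPM, from 16 UMIs. Unlabelled cfl1 in the last bin was below that in the first in 5 of 5 libraries, for example 1132 against 1425 CPM at dome. Unlabelled pfn1 lay between 209 and 288 CPM in all bins of the A libraries and between 373 and 580 in those of dome and the B libraries, and labelled pfn1 stayed at or below 51.3 CPM in every bin.

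**Figure D5:**
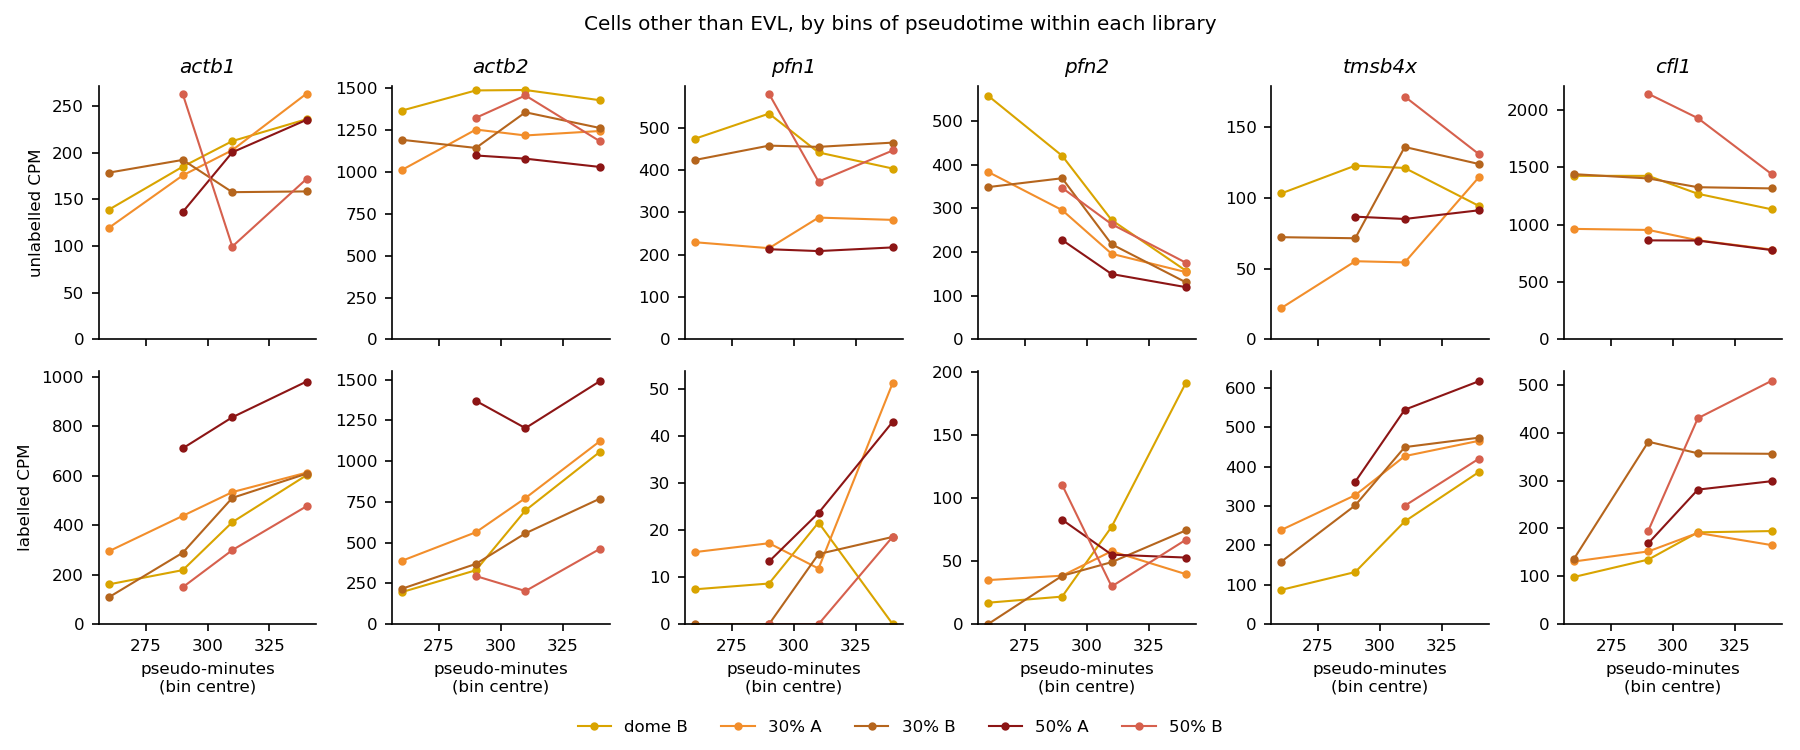
Unlabelled (top) and labelled (bottom) CPM of 6 members in cells other than EVL, by the centre of the pseudotime bin, with 1 line for each library. Unlabelled pfn2 runs from 559 to 157 CPM at dome, and labelled actb2 goes from 196 to 1055 CPM while its unlabelled level stays between 1365 and 1488 CPM.

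Another 138 genes of the actin cytoskeleton, listed by function, were fitted in the same way. From dome to 50% epiboly 3 of 101 tested rose and 3 fell, or 5.94% against 7.95% of all genes, with a median of -0.04 against -0.09 for all genes. Among those that rose was the bundling protein gene lcp1 (log2 4.24, SE 0.74, edgeR adjusted p = 0.00652). The formin gene daam1a (-2.12, SE 0.50, 0.0197), the Arp2/3 activator gene wasla (-2.37, SE 0.63, 0.0308) and the kinase gene rock1 (-1.72, SE 0.51, 0.0476) fell. Between dome and 30% epiboly and between the epiboly stages 0 of 101 were called by edgeR (9 and 7 genes at an unadjusted p under 0.05). For labelled expression 10 of 19 tested rose from dome to 50% epiboly (52.6% against 46% of all genes, median 1.62 against 1.63 for all genes), with myl12.1, a myosin light chain gene, at 3.05 (SE 0.50, limma adjusted p = 0.0203), and 0 of 19 were called for unlabelled expression (3 at an unadjusted p under 0.05).

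In the EVL, 9 of 74 tested were higher and 2 lower (14.9% against 10.6% of all genes, median 0.11 against -0.07). lcp1 was found nearly only there. It stood at 45.4 CPM in EVL cells at dome, 403.1 and 353.4 at 30% epiboly and 1063 in 50% epiboly replicate A. In other cells it stood at 0.424, 0.917, 0.356 and 2.49 CPM. Like tmsb1, lcp1 entered the fit through its EVL counts and is left to its levels. It is still counted among the 9 higher, and neither the 14.9% nor the 10.6% was corrected for such genes. The actin side binders tagln2 (log2 3.31, SE 0.15, edgeR adjusted p = 5.3e-10) and cnn2 (3.62, SE 0.24, adjusted p = 4.1e-08) were also higher. fscn1a, which encodes the bundling protein fascin, was lower (-0.92, SE 0.16, adjusted p = 0.00104), as was myl12.1 (-0.29, SE 0.084, adjusted p = 0.0379). Labelled tagln2 (3.03), cnn2 (4.54) and cdc42l (1.20) were higher and labelled fscn1a (-1.99) lower, 4 of 21 tested (19.0% against 10% of all genes). For unlabelled expression 3 of 21 were called (14.3% against 12.8%), cnn3b higher (0.53), and myl12.1 (-0.55) and rac1a (-0.38) lower.

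Across 49 sums of a cell type in a library, the genes whose log2(CPM + 1) was most like each member's were ranked by Pearson's r among 6916 genes with 200 or more UMIs. The sums share libraries and scaling, so r is a description only. For tmsb1 they were clone-named gene models, with si.dkey.160o24.3 (0.93) ahead of the others and si.ch73.347e22.8 at 0.91. For pfn1 they were rabgap1l2 (0.84), pitpnc1b (0.83) and tnfaip8l2b (0.82). For actb1 they were mplkip (0.85), ptbp1a (0.80) and eef1a1l1 (0.80), and eef1a1l1 (0.83), a translation elongation factor gene, also led for actb2, ahead of tpt1 (0.80) and rdh10b (0.80). tmsb4x was most like atpaf1 (0.87), with hnrnpa0b at 0.86, pfn2 like mkrn1 (0.86), znf706 (0.85) and lamp2 (0.83), and cfl1 like churc1 (0.87), sec61b (0.86) and hmgb3b (0.85). Among the members themselves r was highest for actb1 with actb2 (0.75) and pfn1 with tmsb1 (0.69), and lowest for pfn2 with tmsb4x (-0.80).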

How the data were processed

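Cells of the 5 IAA libraries were analysed as deposited, with groups from the labels and the library as the replicate. The study calls the epiboly replicates biological, but the labels give only their letters, so p-values measure the spread between these libraries. The deposited UMI counts are whole counts per gene and cell, which the authors made after T-to-C tolerant mapping with Bowtie2. The methods name Drop-seq tools with an Ensembl Zv10 annotation for expression and GRAND-SLAM with GRCz11 for labelling, and which of them wrote this table is not stated, nor how multi-mapping reads were treated. The deposited labelled fraction (0 to 1) is the authors' GRAND-SLAM estimate per gene and cell. Pseudotime, a deposited score in pseudo-minutes, and the names of cell types are the authors' own, from URD on total expression. The 9 other per-cell columns were not used. Of the gene IDs, 19926 matched the reference table of names. Injected RNAs (0.534% of UMIs) were left out. No doublets were removed, 168 cells over 3 times their library's median UMIs were left out as an alternative, and 1 cell barcode occurred in more than 1 library.

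UMI counts were summed per library, or per type with 5 or more cells, and tested with edgeR 4.0.16 (TMM, filterByExpr, quasi-likelihood), with DESeq2 1.42.0 as an alternative, in R 4.3.3. SE is the absolute log2 change over the root of F. The stage fit has stage alone as its term, and type fits add the library. Labelled and unlabelled CPM were tested as log2(CPM + 1) with limma 3.58.1 (trend) where 30 or more UMIs (stage) or 10 or more (EVL) stood behind each fraction. Such fold changes understate those of low genes. P-values were adjusted over all genes tested by Benjamini-Hochberg, and the scripts were tested on simulated data. Fractions were compared by exact permutation or sign-flip tests with numpy 2.4.6, pandas 2.3.3 and scipy 1.17.1 in Python 3.11.15.

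The members and lists were chosen with earlier results of these data known. All members are named throughout, with the 3 genes of lowest adjusted p per direction from the list of other actin genes (138 of 159 in the tables) and the 3 most similar genes of each member. Some genes that this rule names are not reported here. Positions and sequences are not given, since a genome was not used here.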

Additional observations from a re-analysis of the deposited data

Results flagged for a closer look

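Dome stood apart in several EVL comparisons. For pfn1, the labelled fraction of EVL cells exceeded that of other cells by 47.7 points at dome, against 83.3 to 90.3 points in the other 3 libraries, and this low value lay far from the rest for a group of 4. Chance alone gives such a distant value in about 1 of 20 groups. The EVL ratio of pfn1 was 2.79 log2 units higher at epiboly than at dome, and that of actb1 0.69 higher, from a term added after the data had been seen and with 1 library at dome. In marker-rich EVL cells the value for actb1 was 0.02, where the median over all genes was 0.52. For pfn2, the labelled fraction was 1.57 points higher in EVL cells at dome and lower in EVL cells in each epiboly library. For cfl1 it was 4.89 points higher at dome and lower in each epiboly library. These 2 differences in direction were not tested. For tmsb4x, the log2 ratio of EVL to other cells was 0.77 in 30% epiboly replicate B, far from the other 3 libraries.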

How the results depend on the processing

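Of the settings tried for single members, 404 were counted as unchanged, 19 gained a call, 20 lost one and 7 were counted as reversed. Not every change of sign in an uncalled member is among these 7. Total pfn1 at 50% epiboly changed sign without TMM and is not. For total expression from dome to 30% epiboly, 0 members were called, 1 with DESeq2, with no low-count filter and with a replicate block, and 0 to 3 when single libraries were left out. For labelled expression a replicate block gave 1 call at 30% epiboly in place of 0, with 13.4% of genes called in place of 0%. At 50% epiboly 2 were called (46% of genes). With a minimum of 10 UMIs behind the fraction it was 1 (22.1% of genes), as in cells other than EVL (43.6%). Fewer were called when single libraries were left out, as over all genes. The replicate block rests on the letters, which correlate over genes (r = 0.20, 2 pairs) but are not known to pair samples. It left total tmsb4x and tmsb1 called at 50% epiboly and added labelled cfl1 (1.91, adjusted p = 0.00542) and, at 30% epiboly, labelled pfn1 (1.86, adjusted p = 0.0391). With the block 57.1% of genes were called for labelled expression at 50% epiboly. In EVL cells 5 members were called (with tmsb1, whose call its filter fixes), 2 with no replicate block (no library term) and 1 below 10000 marker CPM, where actb2 reversed (-0.018). For unlabelled expression in EVL 1 was called in place of 0 with a minimum of 30 UMIs (cfl1), and 0 to 1 when single libraries were left out. With exactly 3 UMIs per pair, no member had enough UMIs for these EVL tests. In other types 25 pairs were called (7 of tmsb1, through its EVL counts), 13 without EVL cells and 16 to 35 when single libraries were left out. The 16 were without 50% epiboly replicate A. The labelled fraction was higher in EVL in every library for 3 members, and for 5 with pairs of 1 or more UMIs. The difference between 50% and 30% epiboly reversed for actb1 (0.0566 points) and tmsb4x (0.460) as a mean over cells, for pfn1 (-1.05) and tmsb4x (3.96) with exactly 3 UMIs, and for pfn2 with 5 or more (-3.49). The EVL difference of pfn2 reversed with exactly 3 UMIs (10.6). There that of pfn1 was 33.3 points, and that of actb2 was 7.44 points, higher in 2 of 3 libraries. Over all genes, 39 were called at 30% epiboly (70 without TMM, 192 with DESeq2, 294 unfiltered, 199 with the block, 69 to 960 without single libraries), 966 at 50% epiboly (2136 without TMM, 723 to 2567 without single libraries), 0 between the epiboly stages (3 unfiltered, 2 with the block, 1 to 122 without single libraries), 773 in EVL (1420 unfiltered, 301 with no library term, 431 to 1292 without single libraries, where 101 became 2 to 177 for unlabelled and 79 became 38 to 154 for labelled expression) and 5 for unlabelled expression at 50% epiboly (0 with TMM). The causes of these moves were not tested. Limits are that dome cannot be left out of the stage comparison, that 50% epiboly replicate B has 557065 UMIs and 3 EVL cells, and that labelled copies without a detected conversion count as unlabelled.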
